A study of Mus musculus with 18 samples.

Results

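The genes described are 9 surface markers of stromal cells, Thy1, Ly6a, Eng, Cd47, Alcam, Nt5e, Mcam, Ngfr and Anpep, measured in clones of mouse bone marrow stromal cells. Every probe set annotated with 1 of these symbols alone was taken. That gave 14 probe sets of 36701 on 3 Affymetrix chip types, with 8 on MG_U74Av2, 5 on MG_U74Bv2 and 1 on MG_U74Cv2. They covered 8 of the 9 genes, of 15964 single-symbol genes in all. None of the probe sets carried Ly6a as its single symbol, and that gene has no value here. The CD34+ group held 3 RNAs and the CD34- group 3, and since an RNA was put on all chip types, there were 18 arrays. Both groups came from adult marrow of the mouse and were isolated by CD34, a sialomucin of blood stem cells and endothelium. All cells were expanded from single-cell colonies in DMEM with fetal bovine serum, and no genetic change or treatment is given for either group. Whether a group's RNAs are from separate clones, cultures or animals is not stated, so a difference between single clones and one of CD34 status cannot be told apart. The spread behind each p-value is that among the RNAs and may be technical.

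Surface antigens are how marrow stromal cells are recognised, because they have no single defining marker. Cells are selected for antigens such as Thy1, endoglin, CD73 and CD146, which are the products of Thy1, Eng, Nt5e and Mcam, and against antigens of blood cells. The antigens themselves do unrelated work: some are co-receptors for secreted growth factors, some are adhesion molecules of the immunoglobulin superfamily, and some are enzymes that act on nucleotides or peptides outside the cell.

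Values are quantile-normalized signals in intensity units, and differences are CD34+ minus CD34- on the log2(signal + offset) scale. That scale understates changes of dim probe sets. Levels of different probe sets cannot be set against each other, since probes differ in how brightly they bind. A probe set was tested where it passed a filter on dim signals, and it was called higher or lower at a limma adjusted p under 0.05 within its chip type. Cd34 itself read 938, 787 and 919 in CD34+ RNAs at probe set 160358_at, against 172, 59.9 and 128 in CD34- RNAs (log2 difference 2.50, limma adjusted p = 0.000374). The deposited signals of the groups stood on different scales, and CD34+ arrays were brighter by a factor of 14.1 to 120 before normalization. The ratio of 3' to 5' signal of Gapdh on MG_U74Av2 was 0.700 to 0.771 in CD34+ RNAs, against 0.802 to 0.832 in CD34- RNAs, and RNA concentrations were 0.421 to 0.721 µg/µl in CD34+ RNAs, against 0.989 to 1.38 µg/µl in CD34- RNAs. The same ratio of actin was 1.03 to 1.09 in CD34+ RNAs, against 1.098 to 1.198 in CD34- RNAs on MG_U74Av2, and 0.951 to 1.02 in CD34+ RNAs, against 1.025 to 1.029 in CD34- RNAs on MG_U74Cv2. The groups overlapped in Gapdh on MG_U74Bv2 and MG_U74Cv2 and in actin on MG_U74Bv2. The signal scale, the RNA concentrations and the ratios without overlap separate the groups as CD34 does. The part of all these measures in any difference below was not tested. Precision is limited by how few arrays there are.

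Of the surface markers, Cd47 and Eng were lower in CD34+ clones and none of the markers was higher by the test. On MG_U74Av2, 3 of 6 tested probe sets were called lower and 0 higher, where 14.9% of all tested probe sets of that chip type were called, 8.21% as higher and 6.69% as lower. On MG_U74Bv2 0 of 4 tested probe sets were called by limma, against 1.09% of all, and 2 of the 4 had an unadjusted p under 0.05, against 16.4% of all. On MG_U74Cv2 0 of 1 was called by limma, against 0.0936% of all, and 0 of 1 had an unadjusted p under 0.05, against 8.84% of all. The groups did not overlap at 5 of 6 tested probe sets on MG_U74Av2, against 34.5% of all tested there. The corresponding values were 3 of 4 against 23% on MG_U74Bv2 and 1 of 1 against 14.1% on MG_U74Cv2. These 9 probe sets belonged to Alcam, Cd47, Eng and Mcam alone and read the same RNAs. Those on MG_U74Bv2 and MG_U74Cv2 were of Alcam and Eng, already counted on MG_U74Av2, so the counts are not independent. The CD34+ RNAs were above at 5 of the 9 and below at 4. For 3 against 3 RNAs, the exact permutation p of a probe set without overlap was 0.1, the smallest such a design can give. The median log2 difference over the 11 tested probe sets was -0.20, the value of Nt5e at 93202_at, which was not called. The medians over all tested probe sets were 0.01 on MG_U74Av2, 0.00 on MG_U74Bv2 and 0.00 on MG_U74Cv2. Quantile normalization keeps these near 0 by design, so they are no independent reference, and the marker median shows no shift of the set. Probe sets of the same gene pointed the same way for Cd47, Eng and Alcam, as the plot of all 14 probe sets by RNA shows.

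**Figure D1:**
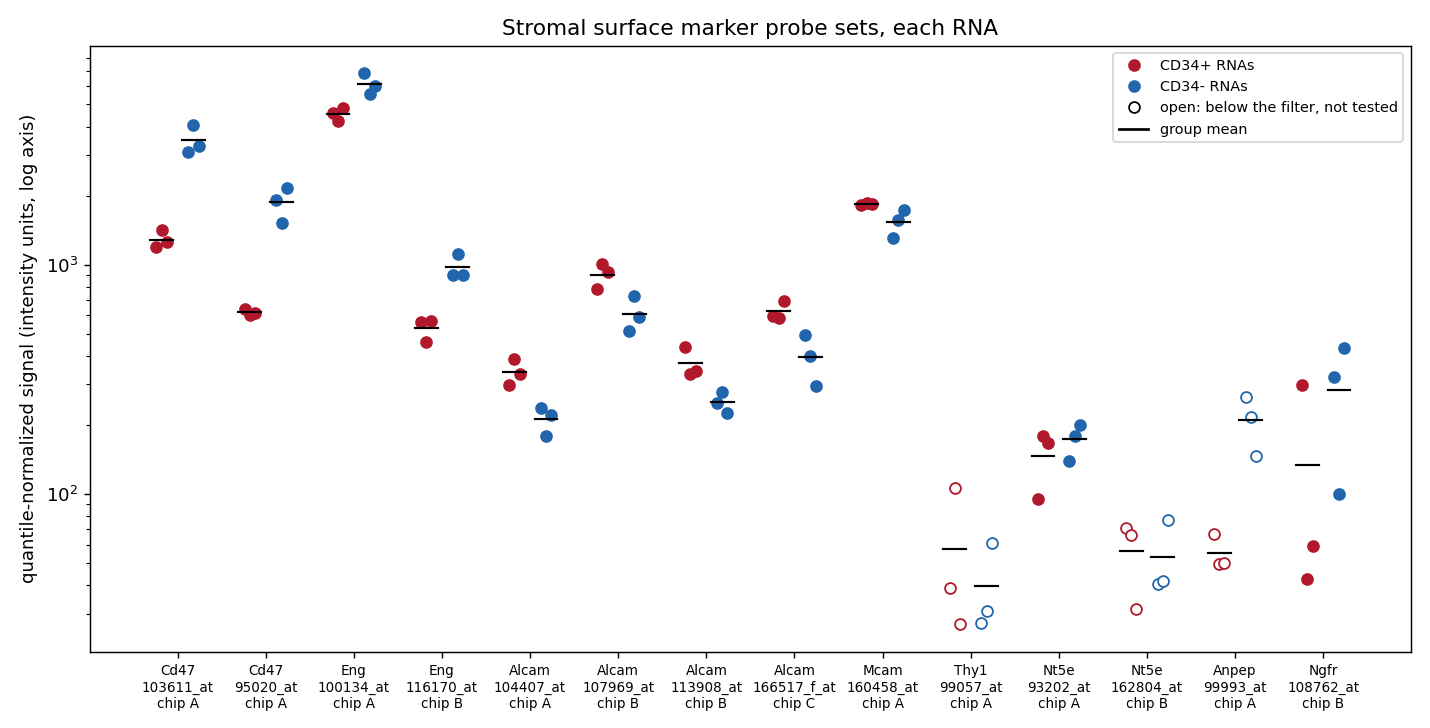
Quantile-normalized signal (intensity units, log axis) of the 14 probe sets in each RNA, with CD34+ RNAs in red on the left of each pair and CD34- RNAs in blue on the right, bars at group means and open circles for the 3 probe sets below the filter. Both Cd47 probe sets and both Eng probe sets have all CD34+ RNAs below all CD34- RNAs, while all 4 Alcam probe sets show the opposite order.

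Cd47 encodes a widely expressed immunoglobulin-like receptor. It binds thrombospondins, and through SIRPα on phagocytes it signals that a cell should not be engulfed. The gene lies at chr16:49851328-49912503 (RefSeq, GRCm38.p6). Its probe set 103611_at read 1187, 1411 and 1248 in the 3 CD34+ RNAs, against 3105, 4072 and 3281 in the 3 CD34- RNAs. Every CD34+ RNA lay far below every CD34- RNA. The means were 1282 ± 116 in CD34+ RNAs and 3486 ± 515 in CD34- RNAs (SD, n = 3 RNAs each). The log2 difference was -1.40 (SE 0.13, 95% interval -1.69 to -1.11, limma adjusted p = 0.000248), a 2.64-fold lower value of signal + offset in CD34+ clones. At its other probe set, 95020_at, the CD34+ RNAs read 639, 604 and 611, against 1911, 1523 and 2160 in CD34- RNAs. The CD34+ RNAs were close to one another, with a mean of 618 ± 18.4, while the CD34- RNAs were spread more widely at 1865 ± 321 (SD, n = 3 each). The log2 difference there was larger in size, at -1.50 (SE 0.14, 95% interval -1.83 to -1.18, limma adjusted p = 0.000288).

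Arrays were washed and stained on 2 fluidics stations, and on MG_U74Av2 either station handled arrays of both groups. Within station 2, with 2 arrays of each group, Cd47 differed by -1.39 at 103611_at (limma adjusted p = 0.00657) and by -1.42 at 95020_at (limma adjusted p = 0.00597). Within station 1, with 1 array of each group and no test, the same probe sets differed by -1.43 and -1.68. With the station as a block both kept their call (limma adjusted p = 0.00062 and 0.00058).

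Eng encodes endoglin, a co-receptor that presents TGF-beta family ligands and is abundant on endothelium and marrow stroma. It lies at chr2:32646595-32682669. Probe set 100134_at read 4602, 4219 and 4837 in CD34+ RNAs, against 6816, 5532 and 5982 in CD34- RNAs. The groups did not overlap, but the gap between the highest CD34+ RNA and the lowest CD34- RNA was small beside that of Cd47. The means were 4553 ± 312 in CD34+ RNAs and 6110 ± 652 in CD34- RNAs (SD, n = 3 RNAs each). The log2 difference was -0.42 (SE 0.10, 95% interval -0.65 to -0.19, limma adjusted p = 0.0242). On MG_U74Bv2, probe set 116170_at read 560, 458 and 566 in CD34+ RNAs, against 900, 1115 and 896 in CD34- RNAs. All CD34+ RNAs were again below all CD34- RNAs, and the log2 difference of -0.76 (95% interval -1.20 to -0.32) was not called (limma adjusted p = 0.0986).

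The Eng call on MG_U74Av2 was the less secure one. It was lost in 7 of 18 alternative settings, 3 of them fits that left out 1 RNA. The adjusted p was 0.0657 with CD34+ RNA 1 left out, 0.102 with CD34+ RNA 2 left out and 0.0877 with CD34- RNA 1 left out. Its log2 difference stayed between -0.49 and -0.34. Within station 2 it was -0.44 (limma adjusted p = 0.0867), within station 1 it was -0.37 with no test, and with the station as a block the call held (adjusted p = 0.0417). On MG_U74Bv2 and MG_U74Cv2, station 2 held CD34- arrays alone, so that only station 1, with 3 CD34+ arrays and 1 CD34- array, could be compared, and there the second Eng probe set differed by -0.67, a value that rests on that 1 CD34- array and is given without a test.

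**Figure D2:**
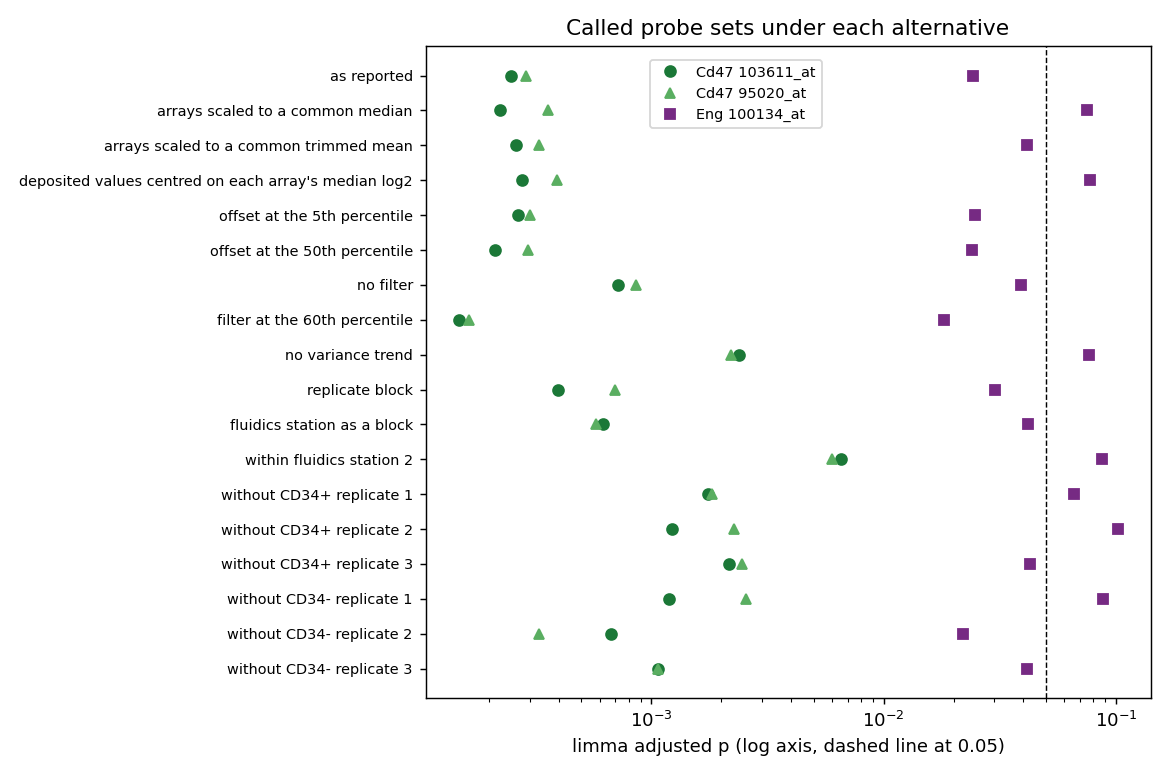
Limma adjusted p (log axis, dashed line at 0.05) of the 3 called probe sets as reported and under each alternative that allows a test. The Cd47 probe sets stay at or below 0.00657, while Eng at 100134_at lies on both sides of the line.

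Alcam and Mcam encode adhesion molecules of the immunoglobulin superfamily. Alcam, or CD166, binds itself and CD6 on lymphocytes, and its gene lies at chr16:52248996-52453081, on the same chromosome as Cd47. It had 4 probe sets over the 3 chip types. Probe set 104407_at read 298, 388 and 332 in CD34+ RNAs, against 236, 178 and 220 in CD34- RNAs, and 107969_at read 779, 1001 and 926 in CD34+ RNAs, against 511, 729 and 588 in CD34- RNAs. For 113908_at the values were 437, 332 and 343 in CD34+ RNAs, against 249, 277 and 225 in CD34- RNAs, and for 166517_f_at they were 596, 586 and 694 in CD34+ RNAs, against 492, 398 and 296 in CD34- RNAs. At each of the 4 probe sets all CD34+ RNAs were above all CD34- RNAs. These probe sets read the same RNAs and are not independent of one another. The log2 differences of 0.57, 0.50, 0.42 and 0.57 were of similar size, and none passed the test (limma adjusted p = 0.0787, 0.263, 0.475 and 0.661). The 95% intervals were 0.14 to 1.01 at 104407_at and 0.04 to 0.96 at 107969_at, and those of the other 2 probe sets included 0. Within station 1 and station 2 of MG_U74Av2, 104407_at differed by 0.36 and 0.68, and within station 1 of the other chip types 107969_at, 113908_at and 166517_f_at differed by 0.70, 0.42 and 0.29.

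Mcam, or CD146, is an adhesion molecule of pericytes, endothelium and marrow stromal progenitors, and its gene lies at chr9:44134658-44142727. Probe set 160458_at read 1826, 1854 and 1838 in CD34+ RNAs, against 1301, 1569 and 1723 in CD34- RNAs. The CD34+ RNAs were almost equal and all above the CD34- RNAs, which were widely spread. The log2 difference of 0.27 (95% interval -0.01 to 0.54) was not called (limma adjusted p = 0.188). It was 0.08 within station 1 and 0.36 within station 2.

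**Figure D3:**
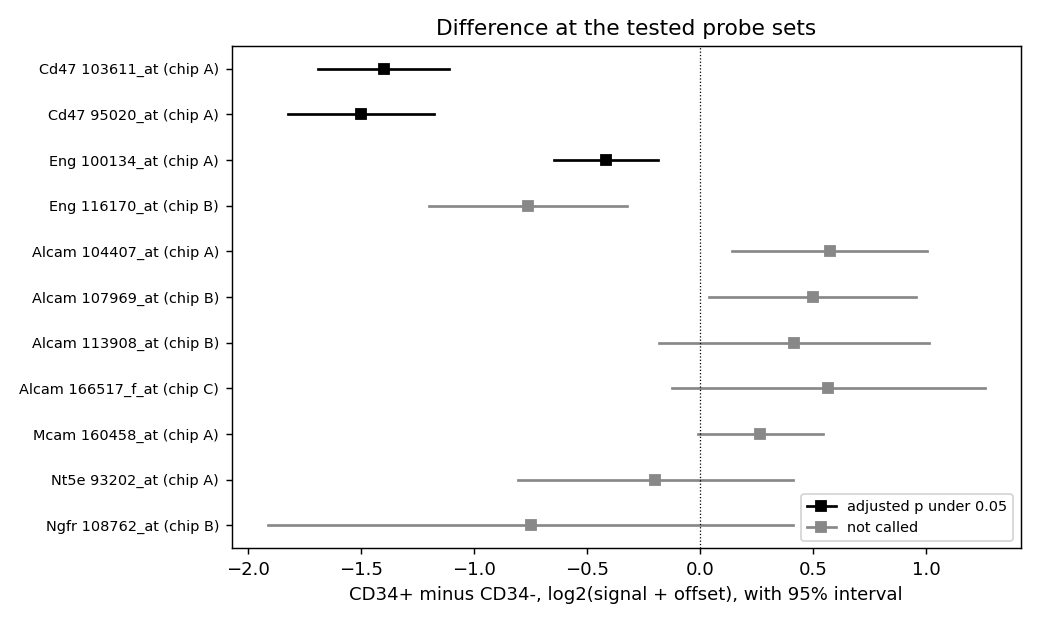
CD34+ minus CD34- difference on the log2(signal + offset) scale at the 11 tested probe sets, with squares for estimates and bars for 95% intervals (limma), in black where the adjusted p was under 0.05. Both Cd47 probe sets lie below -1.39, the Eng probe sets lie at -0.42 and -0.76, and the 4 Alcam probe sets lie between 0.42 and 0.57.

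A promoter window of 250 bases is shown for Cd47 and Eng, which had called probe sets, and for Alcam, which pointed the other way at every probe set. They come from RefSeq (GRCm38.p6), run 5′ to 3′ along the gene's strand, and carry matches to 5 promoter motifs in capitals. The windows are chr16:49855404-49855653 on the plus strand for Cd47, chr2:32646345-32646594 on the plus strand for Eng and chr16:52453082-52453331 on the minus strand for Alcam. The windows of Eng and Alcam end at the annotated start of the gene. The Cd47 window lies inside the annotated gene, downstream of its start at 49851328, and may therefore not hold the promoter of every Cd47 transcript.
Cd47: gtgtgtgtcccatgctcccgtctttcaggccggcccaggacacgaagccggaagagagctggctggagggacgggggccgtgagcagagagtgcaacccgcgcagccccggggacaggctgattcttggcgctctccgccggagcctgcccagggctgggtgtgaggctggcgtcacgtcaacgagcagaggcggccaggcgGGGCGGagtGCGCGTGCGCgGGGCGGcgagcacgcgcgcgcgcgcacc
Eng: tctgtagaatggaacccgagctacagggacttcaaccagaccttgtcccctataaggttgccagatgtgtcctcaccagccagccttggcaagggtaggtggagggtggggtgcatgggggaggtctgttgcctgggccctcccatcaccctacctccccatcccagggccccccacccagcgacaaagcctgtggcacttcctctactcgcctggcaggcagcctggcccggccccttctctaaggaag
Alcam: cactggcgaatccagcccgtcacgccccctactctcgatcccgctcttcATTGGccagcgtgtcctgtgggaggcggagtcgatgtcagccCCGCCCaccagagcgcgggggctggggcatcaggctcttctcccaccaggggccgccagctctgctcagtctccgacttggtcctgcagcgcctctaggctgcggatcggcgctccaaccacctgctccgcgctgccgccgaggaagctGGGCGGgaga

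The motifs were searched on both strands as the GC box GGGCGG, the TATA box TATAAA, the CCAAT box CCAAT, the AP-1 site TGANTCA and the NRF-1 site, which is GCGCA, any base and GCGC, and no 2 of them are contained in one another. Cd47 held 2 GC boxes and 1 NRF-1 site, which begins 39 bases before the end of its window. Alcam held 2 GC boxes and 1 CCAAT box, and Eng held no match to these letters. Among all 32851 windows of the same length, 32.7% held a GC box, 12.4% a TATA box, 33.8% a CCAAT box, 6.75% an AP-1 site and 3.74% an NRF-1 site. A window was at hand for 7 of the 9 markers, of which 6 held a GC box, 1 a CCAAT box, 1 an NRF-1 site and 0 a TATA box or an AP-1 site. A match of letters is a description and shows no binding.

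Thy1 and Nt5e encode antigens held to the membrane by a lipid anchor. Thy1, or CD90, is a small immunoglobulin-like protein of T cells, neurons and fibroblasts, and its gene lies at chr9:44043384-44048579. Its single probe set 99057_at read 38.9, 106 and 27.0 in CD34+ RNAs, against 27.2, 30.7 and 60.7 in CD34- RNAs. It passed the filter on 0 of 6 arrays, ranked at the 11.3 to 31.3 percentile of its array in CD34+ RNAs and at the 11.4 to 22.5 percentile in CD34- RNAs, and was not tested. The groups overlapped, and the log2 difference of 0.21 changed sign within station 1 (-0.31) and without CD34+ RNA 2 (-0.09). At this signal a difference in Thy1 was not detectable.

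Nt5e, or CD73, cuts phosphate from AMP to leave adenosine outside the cell, and its gene lies at chr9:88327609-88372089. Probe set 93202_at read 95.2, 178 and 166 in CD34+ RNAs, against 139, 179 and 199 in CD34- RNAs. The groups overlapped, with a log2 difference of -0.20 (95% interval -0.81 to 0.41, limma adjusted p = 0.669). It was -0.77 within station 1, 0.09 within station 2 and 0.00 without CD34+ RNA 1. The other probe set, 162804_at on MG_U74Bv2, was below the filter at 70.8, 65.8 and 31.5 in CD34+ RNAs, against 40.3, 41.7 and 76.5 in CD34- RNAs, and these values overlapped too.

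Anpep, or CD13, is an aminopeptidase that trims peptides at the surface of myeloid cells, epithelia and fibroblasts, and its gene lies at chr7:79821803-79848210. Probe set 99993_at read 66.5, 49.3 and 49.8 in CD34+ RNAs, against 265, 216 and 146 in CD34- RNAs. All CD34+ RNAs were below all CD34- RNAs, but the probe set passed the filter on only 2 of 6 arrays and so was not tested. Its log2 difference was -1.26, with -0.74 within station 1 and -1.53 within station 2. It depended on how dim signals were treated, and was -1.86 with centred deposited values, -1.67 with the offset at the 5th percentile and -0.51 with the offset at the 50th percentile. With no filter it would be called lower (limma adjusted p = 0.0177).

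Ngfr, or CD271, is a receptor for nerve growth factor and other neurotrophins that is used to enrich stromal progenitors in human marrow, and its gene lies at chr11:95568818-95587698. Probe set 108762_at on MG_U74Bv2 read 299, 42.3 and 59.4 in CD34+ RNAs, against 322, 100.0 and 431 in CD34- RNAs. RNA 1 of the CD34+ clones stood with the 2 higher CD34- RNAs, and the groups overlapped. The means were 133 ± 143 in CD34+ RNAs and 284 ± 169 in CD34- RNAs (SD, n = 3 RNAs each). The log2 difference of -0.75 had a 95% interval of -1.91 to 0.41 (limma adjusted p = 0.507). Single RNAs moved it: the value was -1.21 with CD34+ RNA 1 left out, -1.16 with CD34- RNA 2 left out, -0.48 with CD34+ RNA 2 left out and -0.47 with CD34- RNA 3 left out, and none of these passed the test.

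The genes whose profiles over the 6 RNAs were most like those of the called markers were found by the root-mean-square distance between mean-centred log2 profiles on MG_U74Av2. For Cd47 at 103611_at they were Nrep, a protein linked to neuronal regeneration, at 0.115, Col1a1, a chain of type I collagen, at 0.125, and Islr, a leucine-rich repeat protein of mesenchyme, at 0.135. For Eng they were Dad1, a subunit of the enzyme that adds sugars to new proteins, at 0.0304, Use1, a SNARE protein of the endoplasmic reticulum, at 0.0361, and Amotl2, a junction protein of the angiomotin family, at 0.0424. Use1 was called lower (limma adjusted p = 0.0435), while Dad1 and Amotl2 were not called (adjusted p = 0.176 and 0.0557). The neighbours of Cd47 were all called lower. The distance includes the group difference, so a like difference is part of how these genes were picked.

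For related genes, each gene was represented by 1 probe set, and 943 of 11969 genes so represented were called (7.88%, with 4.38% higher and 3.5% lower). That share pools 3 chip types with unlike call rates. All called genes of the lists below were on MG_U74Av2, as were most of the tested ones. There 14.9% of all tested probe sets were called, 8.21% as higher and 6.69% as lower, which is the closer background. Among 19 tested surface antigens of stromal cells outside the 9 markers, 5 were higher, 2 were lower and 12 did not pass. Pdpn, or podoplanin, a mucin-like protein of lymphatic endothelium and reticular fibroblasts, read 1272, 1233 and 1404 in CD34+ RNAs, against 496, 512 and 526 in CD34- RNAs (log2 difference 1.27, limma adjusted p = 0.000275). The tetraspanins Cd82, Cd151 and Cd9 were higher by 0.59, 0.50 and 0.38 on the log2 scale, and Cd44, the hyaluronan receptor, by 0.50. A second probe set of Cd82 differed by -0.25 (limma adjusted p = 0.521). Probe sets of Cd44 on MG_U74Bv2 differed by 0.34 and 0.35 and were not called (limma adjusted p = 0.198 and 0.306). Itgb1, the beta 1 integrin chain, fell by 0.43, and Lrp1, a large endocytic receptor, fell by 0.31. Pdpn kept its call in the 17 of 18 alternatives that allowed a test, whereas Lrp1 lost it in 13, Cd9 in 10, Cd44 in 8, Itgb1 in 5 and Cd82 and Cd151 in 1 each. Lrp1 was not called without any 1 of the 6 RNAs (limma adjusted p from 0.0537 to 0.135). Cd9 was not called without any 1 RNA other than CD34- RNA 3 (adjusted p up to 0.101), nor Cd44 without any 1 RNA other than CD34- RNA 3 (adjusted p up to 0.119). Itgb1 was not called without CD34+ RNA 3 (adjusted p = 0.0612), nor Cd151 without CD34+ RNA 2 (adjusted p = 0.0583). The median log2 difference of this list was -0.12, against 0.02 over all genes represented, which the normalization keeps near 0.

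Of 14 tested ligands and partners of the markers, 1 was lower and 1 higher, and 12 did not pass. Thbs2, a thrombospondin of the family that Cd47 binds, read 4658, 4869 and 3877 in CD34+ RNAs, against 7683, 6936 and 9150 in CD34- RNAs (log2 difference -0.82, limma adjusted p = 0.00299). A second Thbs2 probe set on MG_U74Cv2 differed by -0.16 (limma adjusted p = 0.89). Bdnf, a neurotrophin that Ngfr binds, read 3437, 3361 and 3389 in CD34+ RNAs, against 2264, 1937 and 1919 in CD34- RNAs (log2 difference 0.72, limma adjusted p = 0.0019). Sirpa, the phagocyte partner of Cd47, was below the filter at its 3 probe sets. The TGF-beta receptors Tgfbr1, Tgfbr2, Tgfbr3 and Acvrl1, which act with endoglin, did not pass the test, with log2 differences of -0.02, -0.40, -0.08 and -0.19. Tgfbr3 was represented by a dim probe set at 206 to 471, while others on MG_U74Bv2 read 3160 to 3315 and 999 to 2281. Its probe set on MG_U74Cv2 differed by -0.05 (limma adjusted p = 0.973). The median of the list was -0.19.

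In the adenosine pathway around Nt5e, 1 of 6 tested genes was lower and 0 higher. The nucleoside carrier Slc29a1 fell by 0.48 (limma adjusted p = 0.00573), while a second probe set of it differed by 0.28 (limma adjusted p = 0.515). Ada and Adk, which remove adenosine by deamination and phosphorylation, differed by -0.47 and 0.22 without passing the test. Of 5 tested surface peptidases, 0 were called either way by limma and 0 had an unadjusted p under 0.05. The share of all genes at that unadjusted p is not given, so the second count has no background beside it. Their log2 differences ran from -0.61 at Cpm, a carboxypeptidase, to 0.22 at Cpd, another one. Of 5 tested members of the Ly6 family, to which Ly6a belongs, 2 were lower and 0 higher. Cd59a, which protects cells from complement, read 284, 291 and 362 in CD34+ RNAs, against 1152, 1288 and 1063 in CD34- RNAs (log2 difference -1.75, limma adjusted p = 0.000143). Ly6e, a lipid-anchored protein of wide expression, fell by 0.35 at its brightest probe set (limma adjusted p = 0.0171), and its other probe sets differed by 0.12 and -0.04. Ly6e lost its call in 8 of 18 alternatives, among them without CD34+ RNA 1 (adjusted p = 0.0624), CD34+ RNA 2 (0.0715) and CD34- RNA 1 (0.0638).

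**Figure D4:**
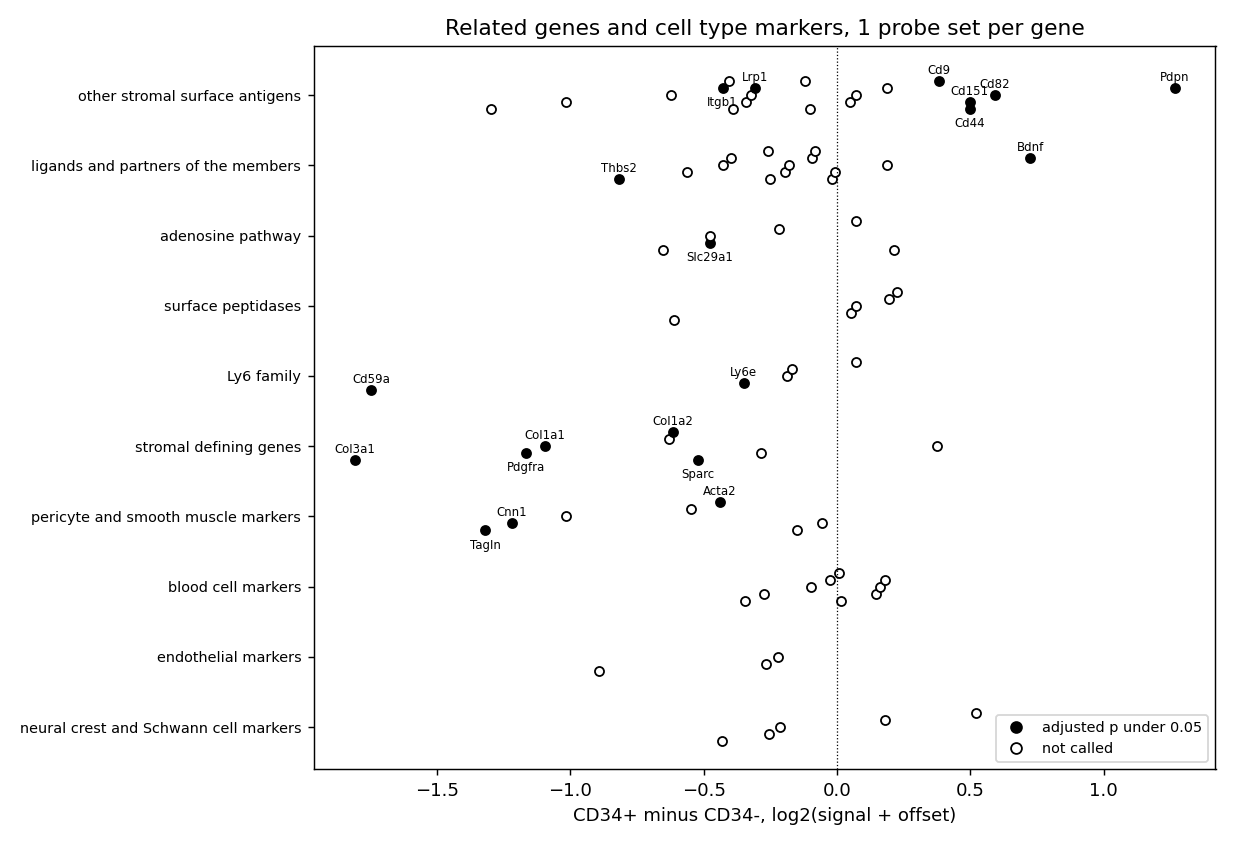
CD34+ minus CD34- difference on the log2(signal + offset) scale of each tested related gene and cell type marker, 1 probe set per gene, grouped by list, with filled points and names where the limma adjusted p was under 0.05. Cd59a and Col3a1 lie lowest at -1.75 and -1.81, Pdpn lies highest at 1.27, and no blood cell, endothelial or neural crest marker is filled.

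The clones were checked against markers of their labelled cell type and of other cells. Of 8 tested stromal defining genes 5 were lower and 0 higher, with a summed signal of 63590 to 69130 in CD34+ RNAs, against 114300 to 124800 in CD34- RNAs. That sum was carried mostly by the collagen chains and ran the same way as Cd47 and Eng. The other 3 tested genes, Fn1, Pdgfrb and Vim, did not pass, with log2 differences of -0.28, -0.63 and 0.37. Col3a1 and Col1a1, collagen chains, fell by 1.81 and 1.10 on the log2 scale, Pdgfra, a receptor for platelet-derived growth factor, fell by 1.16, Col1a2 fell by 0.61 and the matrix protein Sparc fell by 0.52. A second probe set differed by -0.46 for Pdgfra and by -0.34 for Col1a2 without passing the test (limma adjusted p = 0.664 and 0.343). The single probe set of Vim, a filament protein of mesenchymal cells, was dim at 122 to 289 in CD34+ RNAs and 47.0 to 243 in CD34- RNAs, and the matrix proteoglycans Lum and Dcn were below the filter. Of 7 tested pericyte and smooth muscle markers 3 were lower and 0 higher, with a sum of 28810 to 30780 in CD34+ RNAs, against 44260 to 49480 in CD34- RNAs. Acta2 made up most of that sum, at 19340 to 22650 in CD34+ RNAs, against 25680 to 30870 in CD34- RNAs. Such sums follow their brightest probe sets and do not measure the amount of a cell type. Cspg4, Notch3, Rgs5 and Myh11 did not pass, with log2 differences of -1.02, -0.55, -0.15 and -0.06. The lower ones were the contractile genes Tagln, Cnn1 and Acta2, with log2 differences of -1.32, -1.22 and -0.44, and Acta2 lost its call in 5 of 18 alternatives. Its probe set on MG_U74Cv2 differed by -0.20 (limma adjusted p = 0.926). The part of these lists in the differences of Cd47 and Eng was not tested.

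Of 9 tested blood cell markers, 0 were called by limma and 0 had an unadjusted p under 0.05. All were on MG_U74Av2, where 14.9% of all tested probe sets were called. The share of all genes at that unadjusted p is not given. Counts by unadjusted p in the lists of this paragraph therefore have no background beside them. The sum of the blood cell markers was 4688 to 5134 in CD34+ RNAs, against 4566 to 5961 in CD34- RNAs. Ptprc, the pan-leukocyte antigen CD45, was below the filter at each of its probe sets on MG_U74Av2 and read at most 28.9, and Lyz2, the lysozyme of macrophages, read at most 15.35. Other members passed the filter with overlapping groups, among them Cd14, a receptor for bacterial lipopolysaccharide, at 1731 to 1981 in CD34+ RNAs and 1509 to 2492 in CD34- RNAs. Csf1r, the receptor of macrophage colony-stimulating factor, read 612 to 786 in CD34+ RNAs and 627 to 759 in CD34- RNAs, and Elane, an elastase of neutrophils, read 341 to 505 in CD34+ RNAs and 488 to 602 in CD34- RNAs. Of 3 tested endothelial markers 0 were called by limma and 1 had an unadjusted p under 0.05, and the sum was 621 to 760 in CD34+ RNAs, against 868 to 1109 in CD34- RNAs. Cdh5, the cadherin of endothelium, was below the filter, and Pecam1, an endothelial adhesion molecule, differed by -0.89 (limma adjusted p = 0.0854). The endothelial sums did not overlap and ran the same way as Eng, and their part in its difference was not tested. They rest on 3 dim genes, with Esam at -0.22 and Flt1 at -0.27 not called. Of the 10 listed endothelial markers 7 were below the filter. Sums of the stromal, smooth muscle, adenosine, Ly6 and neural crest lists also did not overlap and were lower in CD34+ RNAs. Of 5 tested neural crest and Schwann cell markers 0 were called by limma and 0 had an unadjusted p under 0.05. Their sum was 2275 to 2487 in CD34+ RNAs, against 2638 to 2800 in CD34- RNAs. Sox10 and Tfap2a entered that sum by dim probe sets on MG_U74Av2, at 340 to 756 and 54.5 to 224. Brighter tested ones of Sox10 on MG_U74Bv2 and Tfap2a on MG_U74Cv2 read 2272 to 3077 and 1741 to 2713. These were not in the sum, so it depends on which probe set represents a gene. In RNA from whole cultures, fewer cells of a type and less RNA per cell cannot be told apart.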

How the data were processed

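Total RNA of mouse marrow stromal clones (6 RNAs, 3 CD34+ and 3 CD34-) was measured on 3 Affymetrix chip types. The authors deposited linear intensities, which per the submitters' processing notes were computed with MAS5. Its version is not given in the sources used here. Groups and replicate numbers came from the sample titles. The platform annotation, which can be old, gave the gene symbols, and probe sets with several symbols were named after none. The array files name no genome build, and positions and promoter sequences are those of RefSeq (GRCm38.p6).

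Quantile normalization was done per chip type over its 6 arrays (limma 3.58.1, R 4.3.3), without the 66 control probe sets of each. The 20th percentile of the normalized values (51.5, 106 and 97.9 on the chip types A, B and C) was added before log2. Probe sets entered the test if 3 or more of the 6 deposited values exceeded the 40th percentile of their array, which left 7634, 7737 and 7481. Each chip type was fitted whole with lmFit and eBayes with an intensity trend, the group being the only term, and two-sided p-values were corrected per chip type after Benjamini and Hochberg. The fit was run on simulated data with independent normal errors and planted differences. Those data held neither the scale gap nor the RNA quality differences between the groups, so the run does not bear on them.

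All probe sets of the 9 markers were named, tested or not. In each related list the called genes with the largest differences were named, up to 4, together with any named after their values were seen (Sparc, Cd9, Itgb1 and Lrp1, and genes that were not called). A gene was represented by its brightest tested probe set on the first chip type that had one. The markers and lists were chosen with earlier results of these data known. Alternatives changed the scaling, the offset, the filter, the variance model, the replicate or station block and the RNAs used. For related genes they were added after seeing the data.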

Additional observations from a re-analysis of the deposited data

How the results depend on the processing

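Of 18 alternatives 17 allowed a test on MG_U74Av2, and both Cd47 probe sets kept their call in those 17, with log2 differences from -1.48 to -1.25 at 103611_at and from -1.68 to -1.23 at 95020_at. Eng at 100134_at also lost its call with arrays scaled to a common median (adjusted p = 0.0751), with each array's deposited values centred on their median (0.0771) and without a variance trend (0.0768). Alcam at 104407_at was called only without a variance trend (0.0453). On MG_U74Av2 the count of called markers was 2 to 3 when 1 RNA was left out, and 4 without a filter, which adds Anpep. On MG_U74Bv2 and MG_U74Cv2 it was 0 by limma in every alternative, with up to 2 of 4 and 0 of 1 at an unadjusted p under 0.05 in the fit as reported. The deviations of same-numbered RNAs from their group means had correlations of -0.05 to 0.07 across probe sets. With 3 RNAs per group this check cannot show whether the numbers pair the samples. Under the replicate block 956, 57 and 0 probe sets were called by limma on MG_U74Av2, MG_U74Bv2 and MG_U74Cv2. Of these 3, 0 and 0 were markers, and 657 probe sets on MG_U74Cv2 had an unadjusted p under 0.05.

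Over all probe sets, 1138 were called on MG_U74Av2 and 634 to 1230 without 1 RNA. On MG_U74Bv2, 84 were called as reported, 37 without a filter, 16 without a variance trend, 1 with the station as a block, 3 within station 1 and 2 to 98 without 1 RNA. Station 1 held a single CD34- array on MG_U74Bv2 and MG_U74Cv2, which that fit takes to vary like the CD34+ arrays, so its counts say little. On MG_U74Cv2, 7 were called as reported, 2 with the offset at the 5th percentile, 1 within station 1 and 0 to 1 without 1 RNA. It was 0 by limma without a filter, without a variance trend and with the station as a block there, against 899, 595 and 471 at an unadjusted p under 0.05. Averaging a gene's probe sets left 0 called genes in the adenosine pathway and 1 in the Ly6 family. Of 20 called related genes, 11 kept their call in every alternative with a test. Where each group may be 1 clone, no setting separates the clone from CD34 status, and probe sets near the filter (Thy1, Nt5e, Anpep and Ngfr) are limited by their signal. The causes of these changes were not tested.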
